A study of Mus musculus with 2 samples.

Results

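The genes described here are 10 that mark or steer alternative activation of macrophages, the state set by the cytokines interleukin-4 and interleukin-13. They are the effectors Arg1, Retnla, Chil1, Chil3, Chil4, Mgl2 and Tgm2, and the regulators Stat6, Irf4 and Socs2. They were chosen by name, and a row of the deposited array table counted for a gene when the platform's annotation gave that symbol and no other. All 10 genes were found, in 11 rows, among 22180 genes with such rows; Socs2 has 2 rows, which were averaged. The study compared alveolar macrophages, which live in the air sacs of the lung, of adult C57BL6 mice, sorted from collagenase-digested lungs as DAPI-negative cells carrying Siglec-F and CD11c. The group labelled wild type carries floxed Pikfyve alleles (PIKfyve f_f). The group labelled PIKfyve KO, of littermates, carries the same alleles with LysM-Cre, a recombinase expressed from the lysozyme 2 locus of myeloid cells. PIKfyve is a lipid kinase of endosomes and lysosomes. There is 1 Affymetrix array per genotype, with amplified cDNA as its input, and the number of mice behind each RNA is not stated in the labels. No value therefore has a replicate error, and nothing was tested between genotypes.

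Interleukin-4 and interleukin-13 bind receptors that share the interleukin-4 receptor alpha chain. Janus kinases on those receptors phosphorylate the transcription factor STAT6, which enters the nucleus and binds paired half-sites in the regulatory DNA of genes such as Arg1, Retnla and Chil3. IRF4 carries part of the later response, and SOCS proteins limit signalling at the receptors. Alveolar macrophages of unchallenged mice are known for abundant Chil3, so the chitinase-like protein by itself does not mark a response to interleukin-4 in this tissue.

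Start-site sequences from RefSeq (GRCm38.p6) were matched for 7 of the 10 genes, each as a window from 250 bases before to 50 bases after one annotated start site. For Mgl2 and Stat6 that site lies inside the gene's annotated span, downstream of its outermost start, so the region before the outermost start was not searched in full. The windows were searched for TTC and GAA with 4 bases of any kind between them, the spacing that STAT6 prefers, and for the same letters with 3 bases between them, the spacing of other STAT proteins. Each motif reads the same on both strands, and matches were allowed to overlap. The spacing of 4 was present in 6.95% of all 32851 windows and the spacing of 3 in 8.30%. Retnla held the first, and Chil3 and Chil4 held the second, whereas the windows of Chil1, Mgl2, Irf4 and Stat6 held neither. The stretches from 250 to 51 bases before the start of these 3 genes are shown because they carry the matches, marked in capitals, and because 2 of them belong to neighbouring copies of one ancestral gene.
Retnla, chr16:48842359-48842558, plus strand: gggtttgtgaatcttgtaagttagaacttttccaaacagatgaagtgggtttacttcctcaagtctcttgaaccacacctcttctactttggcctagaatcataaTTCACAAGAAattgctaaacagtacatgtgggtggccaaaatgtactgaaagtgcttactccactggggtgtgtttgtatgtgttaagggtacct
Chil3, chr3:106167615-106167814, minus strand: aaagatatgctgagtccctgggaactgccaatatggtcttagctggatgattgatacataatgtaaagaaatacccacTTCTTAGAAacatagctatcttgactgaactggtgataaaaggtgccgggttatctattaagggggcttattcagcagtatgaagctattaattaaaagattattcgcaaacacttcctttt
Chil4, chr3:106219530-106219729, minus strand: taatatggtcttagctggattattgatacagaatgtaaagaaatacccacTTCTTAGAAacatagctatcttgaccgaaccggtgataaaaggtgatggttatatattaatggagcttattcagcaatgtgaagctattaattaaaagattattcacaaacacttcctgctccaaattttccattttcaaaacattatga
The windows of Chil3 and Chil4 aligned over 272 columns, 251 of them identical (92.3%), and both hold the same letters at the match and in the 10 bases on each side. A match is a description of the letters and not evidence of binding.

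All values are on the log2 scale of RMA, which brings arrays to a common distribution and condenses each row's probes into one value. The 95th percentile of 1434 receptor genes of smell, pheromone and taste cells, largely silent elsewhere, served as the background level, 5.37 on the array labelled wild type and 5.30 on the array labelled knockout. Genes entered counts when their mean over the arrays was at least 5.13, the median row, which held for 12516 genes. That filter lies under both background levels, so some counted genes were below background. The local spread printed beside a difference is the scaled median absolute deviation of all genes' differences at a similar level. It describes scatter across genes on 2 arrays, not between animals. The row of Pikfyve itself read 5.68 on the array labelled wild type and 5.95 on the array labelled knockout, and the position of its probes relative to the floxed part is not stated by the labels. It does not check the labels, so the arrays are named by them throughout.

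The largest difference among the 10 genes was that of Mgl2, a lectin that binds galactose-type sugars and a marker of alternatively activated macrophages and of some dendritic cells. It read 6.25 on the array labelled wild type and 7.11 on the array labelled knockout, 0.86 (1.82-fold) apart where the local spread was 0.28. Retnla, which encodes the secreted protein RELM-alpha, was next and stayed short of 1.5-fold. Of the 8 genes that passed the filter, 1 was at least 1.5-fold higher in the array labelled knockout, where 4.45% of all genes analysed were, and 0 were at least 1.5-fold lower, where 2.66% were. None was 2-fold apart in either direction; among all genes analysed 0.927% were 2-fold higher and 0.336% were 2-fold lower. The 8 genes were split, 4 higher and 4 lower, with a median difference of -0.04 that turned to 0.02 when the arrays were centred on their medians, and the median of all genes analysed was 0.00. With so few genes, 1 past 1.5-fold is not a result about the set.

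**Figure D1:**
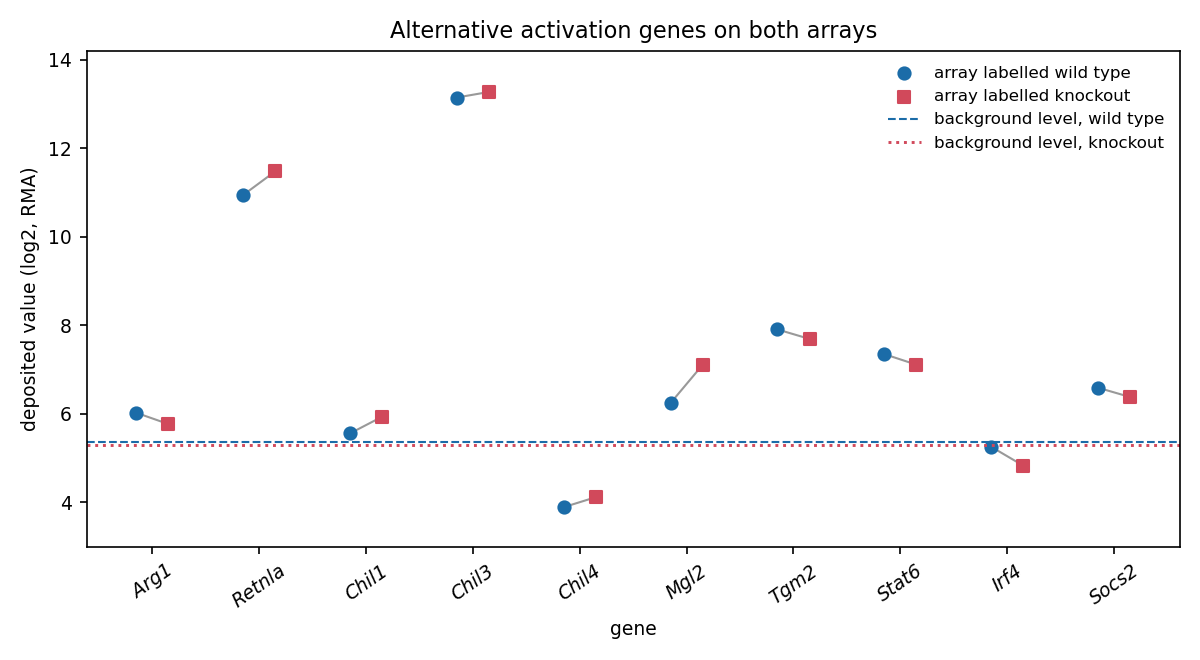
Log2 values of the 10 genes on the array labelled wild type (circles) and the array labelled knockout (squares), 1 array each with no error bars; horizontal lines mark the background level of each array (5.37 and 5.30). Chil4 and Irf4 lie below both lines, and Mgl2 shows the steepest step, from 6.25 to 7.11.

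Arg1, the arginase that turns arginine into ornithine and urea, read 6.02 on the array labelled wild type and 5.77 on the array labelled knockout. Its difference of -0.25 was smaller than the local spread of 0.27. Both values stood only a little over background, above 97.8% and 97.3% of the receptor genes. Arg1 signal was thus weak on both arrays, and the difference lay within the scatter of genes at that level.

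Retnla read 10.94 on the array labelled wild type and 11.48 on the array labelled knockout, above every receptor gene on both. The difference of 0.54, or 1.45-fold, was 2.23 times the local spread, and 5.45% of the genes analysed had a larger positive difference. Retnla was the only one of the 10 genes whose side of the 1.5-fold threshold depended on the scaling, since centring the arrays on their medians gave 0.60. Its relatives of the resistin family gave mixed values. Retnlg, made mainly by neutrophils, read 7.51 and 8.45, Retn read 5.48 and 5.36, and Retnlb, made by gut epithelium, was below background on both arrays.

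The chitinase-like genes encode secreted lectins related to chitinases but without their enzymatic activity. Chil3 (Ym1) read 13.14 on the array labelled wild type and 13.27 on the array labelled knockout, within 0.72 and 0.51 of the highest row of each array. Its difference of 0.13 was 0.53 times the local spread. Whether the row was near saturation was not tested. Chil4 (Ym2), its neighbour with the near-identical start region, read 3.89 and 4.12, under background in both samples, and no fold is given for it. Signal from the Chil3 transcript thus did not raise the Chil4 row above background in these arrays. Chil1, which encodes the chitinase-like protein BRP-39, read 5.56 and 5.94, 0.38 apart where the local spread was 0.27. It lay just over background on the array labelled wild type, above 95.7% of the receptor genes, and above 98.1% on the other.

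Of 6 other genes of the chitinase family with a row, 4 were below background on both arrays, including the active chitinases Chia1 and Chit1. The remaining 2, which act in the lysosome or secretory pathway, were both higher in the array labelled knockout. Chid1 read 7.63 and 8.24, or 1.53-fold, and Ctbs, the lysosomal enzyme chitobiase, read 7.12 and 7.61.

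Tgm2, the cross-linking enzyme transglutaminase 2, read 7.91 on the array labelled wild type and 7.69 on the array labelled knockout. The difference of -0.21 was 0.67 times the local spread in size. No other transglutaminase gene that passed the filter was 1.5-fold apart. Tgm1 read 6.07 and 5.67, Tgm5 read 5.86 and 5.94, and Tgm4 read 5.45 and 4.98, the second of these below background.

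The regulators all read slightly lower in the array labelled knockout. Stat6 read 7.35 and 7.11, with a difference of -0.24 and a local spread of 0.30. Socs2, a suppressor of cytokine signalling that acts on growth hormone and other receptors, read 6.59 and 6.38, and its 2 rows differed by -0.16 and -0.26. Irf4 read 5.26 on the array labelled wild type and 4.83 on the array labelled knockout, both below background. No fold is given for Irf4, although its difference of -0.43 is the most negative of the 10 genes. The differences of Stat6 and Socs2 were smaller than their local spreads.

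**Figure D2:**
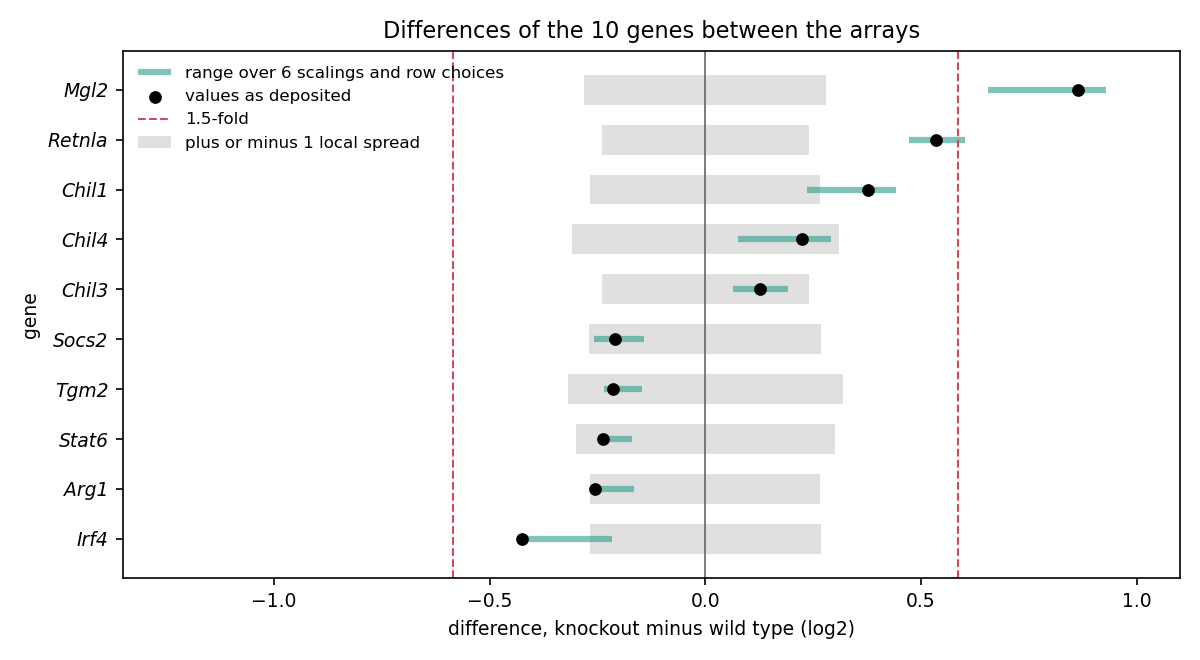
Difference of each gene (knockout minus wild type, log2) as deposited (dots), with its range over 6 settings of scaling and row choice (green bars), plus or minus 1 local spread (grey bars) and the 1.5-fold limits (dashed). Mgl2 alone lies past the limit over its whole range (0.66 to 0.93), Retnla straddles it (0.47 to 0.60), and the dots of Arg1, Chil3, Chil4, Socs2, Stat6 and Tgm2 lie inside their grey bars.

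Upstream of STAT6, the receptor chains Il4ra and Il13ra1 were well above background and nearly level between the arrays. Il4ra, the shared receptor chain, read 7.36 and 7.31, and Il13ra1, which pairs with it for interleukin-13, read 8.81 and 8.90. Il13ra2, a decoy receptor for interleukin-13, was below background on both arrays. So was the kinase gene Tyk2, and Il2rg and Jak3 of the same list had no row that named them alone. Of the 8 ligand, receptor and signalling genes that passed the filter, 7 were lower in the array labelled knockout, against 49.6% of all genes analysed. The median was -0.13 and 0 were 1.5-fold apart, where 4.45% of all genes analysed were 1.5-fold higher and 2.66% lower. Jak1, a kinase bound to the receptors, read 7.50 and 7.16, Jak2 read 7.16 and 6.96, and Ptpn6, a phosphatase that dampens cytokine signals, read 10.29 and 10.12. The ligand genes gave little signal, since Il4 was below background on both arrays and Il13 read 5.58 and 5.28, the second below background.

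All 11 listed transcription factors and coactivators that cooperate with STAT6 passed the filter, though Kdm6b was below background on both arrays. Of the 11, 9 were lower in the array labelled knockout, Kdm6b among them, and 3 were at least 1.5-fold lower. The median was -0.20. Among all genes analysed 49.6% were lower and 2.66% at least 1.5-fold lower, which is the background for this count and those that follow. Egr2 read 9.49 on the array labelled wild type and 8.31 on the array labelled knockout, or 2.26-fold lower in the latter. Myc read 7.87 and 7.12, Klf4 read 8.55 and 7.91, and the coactivator gene Ppargc1b read 6.71 and 6.36. Pparg, which alveolar macrophages need for their differentiation, was not among them, at 10.53 and 10.68.

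Of the other members of the suppressor family to which Socs2 belongs, 4 passed the filter. All 4 were lower in the array labelled knockout, against 49.6% of all genes analysed, and 2 of them by at least 1.5-fold, against 2.66%; the median was -0.57. Socs1, a feedback inhibitor of interferon and interleukin-4 signalling, read 6.43 and 5.65. Socs3, which inhibits interleukin-6 type signalling, read 7.20 and 6.47, Cish, a STAT5 target, read 7.21 and 6.81, and Socs4 read 7.24 and 6.87. Of the 6 other interferon regulatory factor genes, 5 were lower and 1 was 1.5-fold lower, Irf1 at 7.16 and 6.38; the median was -0.29. Irf8, a factor of macrophage and dendritic cell lineages, read 9.22 and 8.69, Irf2 read 8.84 and 8.51, and Irf9 read 6.06 and 5.82. The 5 other STAT genes had a median of -0.02, with Stat3 at 7.83 and 7.47, Stat4 at 5.46 and 5.79, and Stat2 at 5.46 and 5.53. Stat5b was below background on both arrays.

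Several of these regulators are also quickly induced genes. A list of 16 immediate early and heat shock genes, added after the data were seen, holds none of those named above. All 16 passed the filter. Of these, 14 read lower on the knockout array, 8 of them by 1.5-fold or more, against 49.6% and 2.66% of all genes analysed. Their median was -0.57, with Ier2 at 9.05 and 8.04 and Hspa1a at 10.58 and 9.43. Their part in the values of Egr2, Myc, Klf4, Socs1, Socs3 and Irf1 was not tested.

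Other genes used as marks of alternative activation went in both directions, with a median of -0.01 over the 20 that passed the filter. Of these, 9 were higher and 11 lower. Past 1.5-fold there were 4 higher genes, where 4.45% of all genes analysed were, and 2 lower genes, where 2.66% were. Igf1, insulin-like growth factor 1, read 7.06 and 9.67, and Msr1, a scavenger receptor, read 6.83 and 8.59. Fn1, fibronectin, read 7.58 and 6.04, and Flt1, a receptor for vascular endothelial growth factor, read 7.09 and 6.21. The best-known surface marker, the mannose receptor gene Mrc1, was level at 11.36 and 11.35. The chemokine genes Ccl17 and Ccl22, named after their values were seen, read 11.32 and 11.95, and 7.82 and 8.33. Clec10a, the closest relative of Mgl2, was below background on both arrays, as were Alox15, Ccl24 and Il10.

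**Figure D3:**
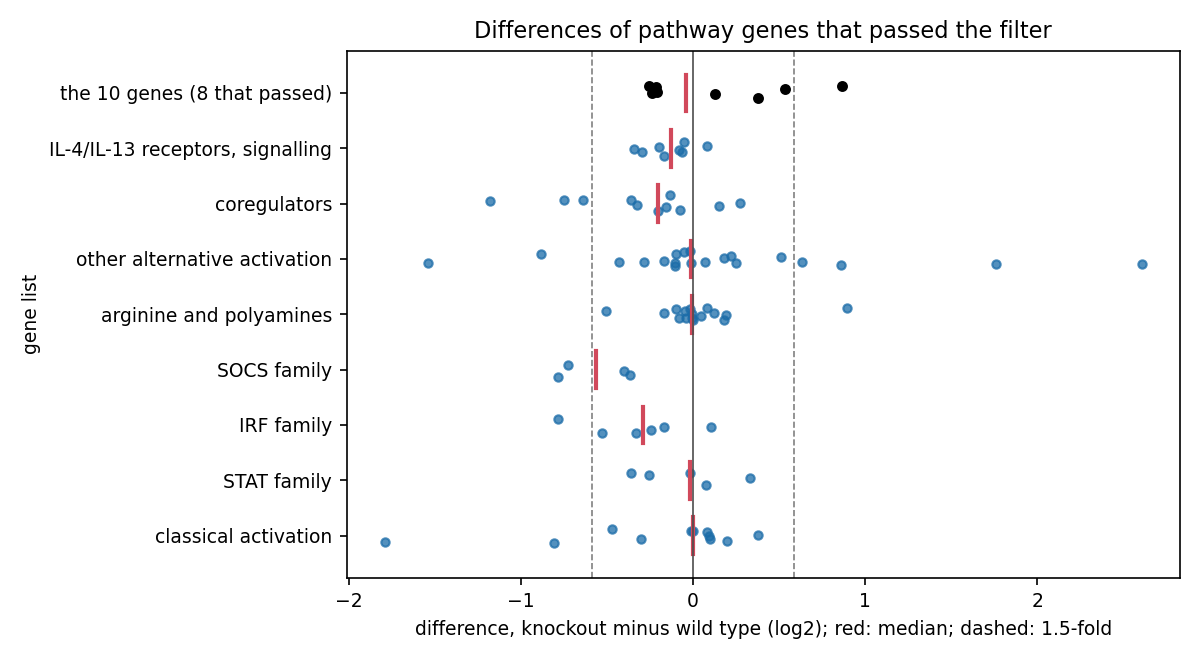
Differences (knockout minus wild type, log2) of the genes that passed the filter in each list, 1 point per gene, with the list median in red and the 1.5-fold limits dashed; the vertical scatter of points has no meaning. The 10 genes (8 that passed) centre at -0.04, the SOCS family at -0.57 and the coregulators at -0.20, and the other alternative activation genes spread from Fn1 on the left to Igf1 on the right.

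Arginine handling around Arg1 was nearly level, apart from the mitochondrial arginase. Of 16 genes, all of which passed the filter, 1 was at least 1.5-fold higher, where 4.45% of all genes analysed were. None was 1.5-fold lower, and the median was -0.01. Arg2 read 6.07 on the array labelled wild type and 6.96 on the array labelled knockout, or 1.86-fold higher in the latter. Slc7a1, an arginine transporter, read 5.59 and 5.09, the second below background, while the transporter gene Slc7a2 read 8.07 and 8.25 and Azin1, a positive regulator of polyamine synthesis, 8.42 and 8.62. Nos2, the competing enzyme of classical activation, was below background on both arrays, as were Gatm and Ddah2.

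Genes of classical activation had a median of 0.00 over the 11 that passed the filter, with 5 higher and 5 lower. That median is the row of Nos2, which was below background and read the same on both arrays. None was 1.5-fold higher and 2 were at least 1.5-fold lower, namely Tnf at 9.73 and 7.94 and Cxcl10 at 7.03 and 6.23. Il1b read 11.68 and 11.21, and Il12b, a subunit of interleukin-12, read 6.37 and 6.75.

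Among other galactose and mannose lectins, 4 passed the filter and 0 were 1.5-fold apart, with a median of 0.12. Cd209a, which also marks dendritic cells, read 6.71 and 6.90. Cd209b read 5.55 and 5.88, and Cd209c read 6.88 and 6.94. Cd209d, which missed the filter and is named after its values were seen, read 4.46, below background, and 5.59.

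All 15 alveolar macrophage markers with a row were above background on both arrays. That alone does not identify the cells, since all 9 B and plasma cell markers with a row were too. Of 14 neutrophil markers, 14 were above background on the array labelled wild type and 13 on the array labelled knockout. The linear values of the alveolar macrophage markers summed to 35591 on the array labelled wild type and 37610 on the array labelled knockout. Of the 15, 8 were higher and 7 lower in the array labelled knockout, against 48.9% and 49.6% of all genes analysed, and the median was 0.09. At least 1.5-fold lower were 3, against 2.66%, namely Krt79 at 11.62 and 10.63, Siglecf at 9.27 and 8.54, and Cidec at 10.28 and 9.70. At least 1.5-fold higher was 1, against 4.45%, namely Fabp4 at 11.60 and 12.22.

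Some of the 10 genes are also expressed by other lung cells, and markers of several of those cells differed between the arrays. In bulk RNA, fewer cells of a type and less RNA per cell cannot be told apart. The cells were sorted for Siglec-F and CD11c, and the share of other cells that remained cannot be told from these arrays. Beside Mgl2, 6 of the 7 dendritic cell markers that passed the filter were higher. Among all genes analysed 48.9% were higher, which is the background for this count and those of higher markers that follow. The list's sum was 3221 and 3774, and Cd24a, at 11.36 and 11.58, supplies most of both sums. Ccr7 read 7.31 and 7.97 and Itgae 5.63 and 5.76, while Flt3 read 5.94 and 5.95 and Xcr1 5.93 and 5.98. The defining factor Zbtb46 was below background on both arrays. Interstitial macrophage markers summed to 839 and 1348, with 8 of 9 higher and a median of 0.25; Ms4a7 read 8.06 and 9.31, C1qb 6.66 and 7.30, Pf4 6.23 and 6.87, and C1qc 5.23, below background, and 5.94. Most monocyte markers went the other way, with sums of 1611 and 1042 and a median of -0.52 over 8 genes. Of these, 6 were lower and 1, Treml4, was higher, at 8.08 and 8.17. Fn1, which is also in the alternative activation list, differed most, with Ms4a4c 2.51-fold lower, Plac8 at 8.89 and 7.87 and Ly6c2 at 8.35 and 7.66. The part of these cells in the Mgl2 difference was not tested.

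Beside Retnla, which airway epithelium and eosinophils can make, 8 of 11 airway epithelium markers were higher and the list's sum was 6518 and 8228. Scgb1a1, at 12.26 and 12.39, supplies most of both sums. Bpifa1 read 7.32 and 9.78, Scgb3a1 8.07 and 9.53 and Scgb3a2 7.82 and 8.82, whereas Epcam read 8.09 and 6.09. Of 12 eosinophil, mast cell and basophil markers 7 were below background on both arrays, Prg2, Epx and Mcpt8 exceeded it only on the array labelled knockout, at 5.76, 5.33 and 5.67, Hdc read 6.13 and 5.48, Kit read 5.57 and 5.36, and the sum was 326 and 362. Alveolar type 2 markers summed to 1964 and 2170, and of the 8 that passed the filter 4 were higher and 4 lower. Cxcl15 read 5.94 and 6.86, Lyz1 8.44 and 9.28, Sftpa1 6.60 and 7.45, and Napsa 9.91 and 9.07. The part of these cells in the Retnla difference was not tested.

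Beside Chil1 and Chil3, which neutrophils also make, 10 of 14 neutrophil markers were higher, with a median of 0.42 and sums of 7294 and 9977. S100a8, at 11.44 and 12.08, and S100a9, at 11.63 and 11.83, supply most of both sums. Camp, an antimicrobial peptide gene, read 7.47 and 8.56, Ly6g 5.78 and 6.57 and Mmp8 7.91 and 8.61. Csf3r, the receptor for granulocyte colony-stimulating factor, went the other way, at 6.32 and 5.68, and was the 1 marker at least 1.5-fold lower. Their part in the Chil1 difference was not tested. Markers of B and plasma cells, which express Irf4, summed to 980 and 1037, with Blk at 6.11 and 5.57, Tnfrsf17 at 5.56 and 6.03, Prdm1 at 6.77 and 6.45 and Sdc1 at 5.49 and 5.79. T cell, NK cell and innate lymphoid markers, the possible makers of Il4 and Il13, summed to 793 and 1159, with Gzma at 7.09 and 8.23, Cd3d at 6.43 and 7.21, Nkg7 at 7.92 and 8.47 and Cd3g at 6.14 and 6.62. Of the 6 that passed the filter, 4 were higher and 2, Cd3e and Cd4, lower, while Gata3 and Il5 were below background on both arrays.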

How the data were processed

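The deposited table holds log2 values of 41345 rows on 2 arrays, made by the authors with RMA, per the submitters' processing notes (version not given in the sources used here). Values ran from 0.77 to 13.86. The platform annotation names a single symbol for 23521 rows, more than one for 1814 and leaves 16010 unlisted; rows of one symbol were averaged. A difference is the knockout value less the wild type value. The local spread equals 1.4826 times their median absolute deviation in 20 bins of mean level over 22180 genes. Python 3.11.15 was used, and the counting was tested on simulated data. With 1 array per genotype no test was possible, and the number of arrays limits the precision.

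The 10 genes and all lists were chosen with earlier results of these data known. All 10 genes are named, with up to 4 genes of each list that passed the filter and had the largest absolute difference; others, such as receptor genes and genes below background, were named after their values were seen. The immediate early list was added after the data were seen. Alternatives were other filters, median, quantile and loess (span 0.3) scaling, 32 added on the linear scale, the highest row of each gene, and 3 local spreads in place of the fold.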

Additional observations from a re-analysis of the deposited data

How the results depend on the processing

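The 10 genes kept the sign of their difference under the 6 settings of scaling and row choice, and Mgl2 stayed at least 1.5-fold higher under all of these and under each filter. With median centring 2 genes were at least 1.5-fold higher, Mgl2 and Retnla. The resistin family median was -0.12 without a filter, and 0.93 under a filter at the 75th percentile of rows, which left 1 gene, and the STAT family median was -0.36 with that filter, again 1 gene. Medians near 0 changed sign under median centring, to 0.02 for the 10 genes, 0.05 for the other alternative activation genes, 0.06 for arginine handling and 0.05 for the STAT family, and under some other settings for the last 3. The classical activation median of 0.00 became 0.07 under median centring and -0.15 under the 75th percentile filter. Medians of the coregulators (-0.34 to -0.13), the IRF family (-0.43 to -0.22), the SOCS family (-0.77 to -0.36) and the interleukin-4 pathway (-0.13 to -0.06) kept their sign under every setting run. Against 557 higher and 333 lower genes at 1.5-fold, median centring gave 735 and 219, the offset 293 and 121, no filter 969 and 833, the 75th percentile filter 371 and 175, and 3 local spreads 194 and 92. In all, 183 recomputed values stayed within the local spread or within 1.5 times the count, and 4 did not. No paired analysis was possible because each genotype has 1 array, and no array could be left out. Values close to background, as for Arg1 and Chil1, limit what their differences show.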
